A study of Nematostella vectensis with 4 samples.

Results

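*NvsnailA* (gene ID NV2g000472000.1) is 1 of the 24526 genes counted in single cells of the sea anemone *Nematostella vectensis*. It was chosen by its ID, as the gene that the study lists as its mesoendodermal marker, and it was followed in the 16089 of 18779 cell barcodes that held at least 500 genes. Snail genes encode zinc finger transcription factors. In bilaterian animals they are known for turning off epithelial genes, among them that of the adhesion protein E-cadherin, while mesoderm forms and cells leave an epithelium. In *Nematostella*, which has no separate mesoderm, snail genes are known as markers of the mesoendodermal plate that folds inward at gastrulation.

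The cells came from whole gastrulae at 24 h post fertilization, dissociated with trypsin as 1 pool, and the labels name no treatment. The pool was loaded on 1 chip as 4 separate runs, and each gave 1 library made from the 3′ ends of polyadenylated RNA with unique molecular identifiers (UMIs, tags that count each captured RNA molecule once). The libraries, called replicates 1 to 4, are technical replicates, so SDs and p-values here measure the spread of library preparations and not of embryos or clutches. Replicate 4 stood apart: it held 7234 cells with a median of 2267 UMIs, against 2268 to 3680 cells with medians of 4986 to 6556 UMIs in the others, and results that change without it are given both ways.

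*NvsnailA* was a moderately abundant RNA, found in about 1 cell of 10 and concentrated in few of them. The kept cells held 8568 *NvsnailA* UMIs, and 90.1% of the detected genes had fewer. Its level, as CPM (the gene's UMIs among all UMIs of the same cells, per 1000000), was 55.3 in replicate 1, 54.9 in replicate 2, 55.8 in replicate 3 and 61.6 in replicate 4 (56.9 ± 3.16, SD, n = 4). At least 1 UMI was found in 12.2%, 11.5%, 12.04% and 11.8% of the cells of replicates 1 to 4 (11.9% ± 0.300), which are 1915 cells in all. The libraries thus differed little in the whole level, with replicate 4 the highest. The cells with 5 or more *NvsnailA* UMIs numbered 197, 118, 117 and 202 and held 80.2%, 68.0%, 75.9% and 71.4% of the gene's UMIs, and the richest single cell, in replicate 4, held 48. Cells with the transcript were also the deeper ones. Their median total was 28099, 20218, 22456 and 6729 UMIs in replicates 1 to 4, against 5632, 4402, 4565 and 2022 in cells without it. Mitochondrial genes took a median of 0.429% to 0.748% of the UMIs in cells with the transcript and 0.80% to 1.253% in cells without it.

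The level of *NvsnailA* per UMI was not the same at all depths. In cells with at least 8000 UMIs it was 63.2, 74.3, 68.5 and 66.2 CPM in replicates 1 to 4 (68.1 ± 4.69), and in shallower cells 10.6, 9.68, 10.6 and 46.4 CPM (19.3 ± 18.0). The deep cells were higher in 4 of 4 libraries and the groups of values did not overlap, but the difference was much smaller in replicate 4, where it was 0.51 on the log2 scale against 2.57, 2.94 and 2.69 in replicates 1 to 3. The mean difference was 2.18 ± 1.12 (SD, n = 4), with p = 0.0286 by an exact two-sided permutation test, the smallest that 4 values against 4 can give. Compared within libraries, with the library as a block, the exact p was 0.125, again the smallest that 4 pairs allow. Without replicate 4 the difference was 2.73, and an exact test of 3 against 3 cannot go below p = 0.1. Total UMIs and kind of cell cannot be told apart in this comparison.

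Finer depth bins showed a dip rather than a steady rise. Cells with 4000 to 8000 UMIs had 6.69, 5.91 and 5.25 CPM in replicates 1 to 3 and 42.7 CPM in replicate 4. Cells with 8000 to 16000 UMIs had 11.7, 41.5, 27.6 and 21.9 CPM, and those with 16000 to 32000 UMIs 80.1, 104, 102 and 42.2 CPM. Cells with 32000 or more UMIs had 81.5, 75.6, 70.9 and 91.4 CPM. Replicate 4 thus dipped too, in the bin of 8000 to 16000 UMIs. Of its bins from 8000 UMIs up, only the deepest lay above the 46.4 CPM of its shallower cells. The shallowest cells, with fewer than 1000 UMIs, had 41.1, 22.4, 24.7 and 51.6 CPM, from 9, 4, 4 and 55 UMIs, so the first 3 of these values have wide counting intervals. Detection went from 3.65% of all cells under 1000 UMIs to 57.5% of those with 32000 or more, but not steadily. In replicates 1 to 3 it stayed between 1.81% and 4.11% in the bins under 8000 UMIs. In replicate 4 it fell from 16.1% at 4000 to 8000 UMIs to 11.1% at 8000 to 16000. An even spread of the *NvsnailA* UMIs of the deepest cells over those cells would have left the transcript in 97.8% of them. About 4 in 10 of the deepest cells therefore held none where nearly all would have held some.

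**Figure D1:**
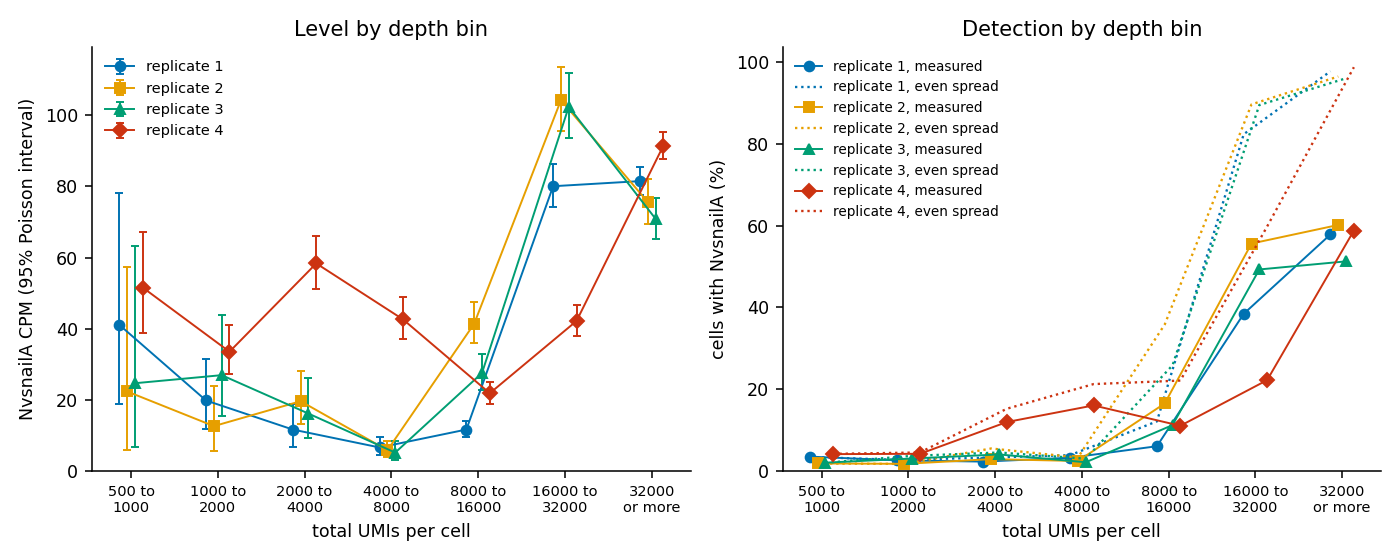
NvsnailA by depth bin in each of the 4 libraries: the level in CPM with its 95% Poisson interval, which covers counting error only (left), and the percentage of cells with at least 1 NvsnailA UMI, measured (points) and if the bin's UMIs were spread evenly over its cells (dotted lines) (right). Replicates 1 to 3 dip to between 5.25 and 6.69 CPM at 4000 to 8000 UMIs where replicate 4 has 42.7. Replicate 4 dips to 21.9 CPM at 8000 to 16000 UMIs. Detection in the deepest bin stays between 51.3% and 60.1%.

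Grouping the cells by expression, with *NvsnailA* and the other markers left out of the genes used, placed most of the transcript in 2 of 20 clusters. Cluster 7 (1049 cells, median 23774 UMIs) had 197.8, 183.8, 191.6 and 214.0 CPM in replicates 1 to 4 (197 ± 12.8) and the transcript in 88.4% of its cells. Cluster 4 (1472 cells, median 2189 UMIs) had 112.4, 112.7, 90.0 and 122.1 CPM (109 ± 13.6) and the transcript in 34.2% of its cells. Together they held 89.5% ± 3.81 of the *NvsnailA* UMIs of a library but 14.5% ± 3.37 of its cells and 29.6% ± 1.14 of all its UMIs. All other cells had 7.91, 6.02, 6.504 and 13.8 CPM (8.56 ± 3.58). Clusters come from the same cells, so these levels are descriptions with no test. *NvsnailA* is the only mesoendodermal marker given by ID in the study's list, which is too few markers to name a cluster, so both keep their numbers.

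No listed marker of another cell type led cluster 7. All 11 others were below their level in the remaining cells, from 0.0495-fold for *Nvmucin*, a mucin of gland cells, and 0.0594-fold for *Nvwnt2*, a Wnt ligand of the trunk ectoderm, to 0.844-fold for *Nvelav*, a neuronal RNA-binding protein. *Nvelav* stood at 23.9 CPM there. In cluster 4 all 11 were below the remaining cells too, from 0.104-fold for *Nvncol1* to 0.729-fold for *Nvwnt2*. Cluster 4 was larger in replicate 4, with 14.6% of its cells, than in replicates 1 to 3 (4.18%, 4.95% and 5.20%), and a doublet score marked 15.8% of its cells as likely doublets against 2.96% of cluster 7. The part of doublets and of depth in cluster 4 was not tested.

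The other clusters were far lower. Of the 12 clusters with at least 20 cells in every library, cluster 6 came next with 22.4 ± 6.69 CPM. It was led by NV2g011441000.1, at 43.7 times its level elsewhere, an ID that the study lists for both the aboral and the pharyngeal ectoderm. Cluster 10, led by the cnidocyte capsule gene *Nvncol1* at 108-fold, had 19.9 ± 14.9 CPM. The neuron-like cluster 11 (*Nvelav* 25.9-fold, *NvLWamide* 94.8-fold, *NvashA* 59.4-fold) had 6.15 ± 2.65 CPM, and the progenitor-like cluster 12 (*Nvath-like* 15.2-fold, *Nvmyc1* 8.90-fold, *Nvnanos* 18.2-fold) had 3.94 ± 1.65 CPM. The lowest of the 12 was cluster 1, where *Nvwnt2* stood at 5.49-fold, with 1.65 ± 0.755 CPM. Only the steps from cluster 7 to 4 and from 4 to 6 separated the libraries' ranges, and every later pair of neighbours overlapped. Cluster 14, with *Nvncol3* at 20.9-fold, held the transcript in 0 of 133 cells at a median of 2214 UMIs, which allows a share of cells with a UMI of up to 2.26% by counting error alone.

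**Figure D2:**
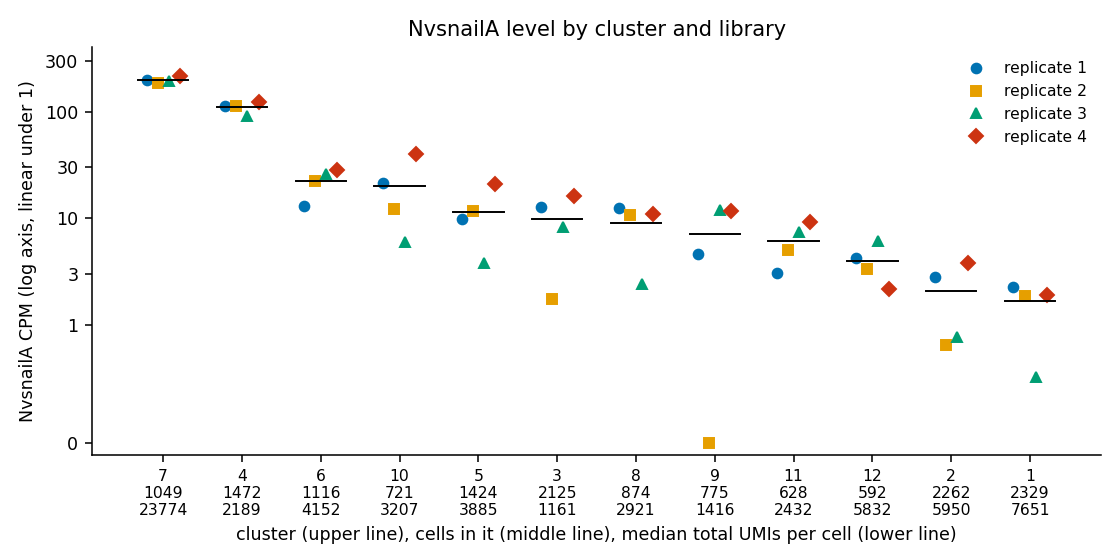
NvsnailA CPM (log axis, linear under 1) in each library for the 12 clusters with at least 20 cells in all 4 libraries, ordered by the mean (black lines). Clusters 7 and 4 lie above all others in every library, at means of 197 and 109 CPM against 22.4 for the next.

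Within cluster 7 every depth bin with at least 20 cells lay between 169 CPM (replicate 2, 32000 or more UMIs) and 245 CPM (replicate 4, 4000 to 8000 UMIs). Its cells of 8000 to 16000 UMIs had 229, 213, 214 and 219 CPM, and those of 32000 or more UMIs had 190, 169, 179 and 215 CPM, so the deepest cells were no higher per UMI. In cluster 4 the bins ranged from 62.2 to 259 CPM, on 4 and 15 UMIs. Shallow as its median was, cluster 4 also held very deep cells: 32000 or more UMIs were found in 44, 26, 23 and 34 of them, with 110, 94.5, 76.7 and 101 CPM. Outside both clusters the level was 1.27 to 10.1 CPM at 4000 to 8000 UMIs and 10.96 to 20.3 CPM at 32000 or more. Under 1000 UMIs it was 6.70 to 39.1 CPM, on 1 to 32 UMIs. The make-up of the bins changed as well. Cluster 7 took 0.261% of cells under 1000 UMIs and 34.3% of those with 32000 or more, and cluster 4 took 12.5% of cells under 1000 UMIs, 1.83% of those with 8000 to 16000 and 12.6% of those with 32000 or more. The part of each in the pattern over all cells was not tested. In the bin of 4000 to 8000 UMIs, replicate 4 had 14.8% and 6.16% of its cells in clusters 4 and 7, against 0.913% to 2.01% and 0.574% to 2.02% in replicates 1 to 3. Leaving out cluster 4, an alternative chosen after seeing the data, the difference between deep and shallow cells was 2.86 on the log2 scale.

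**Figure D3:**
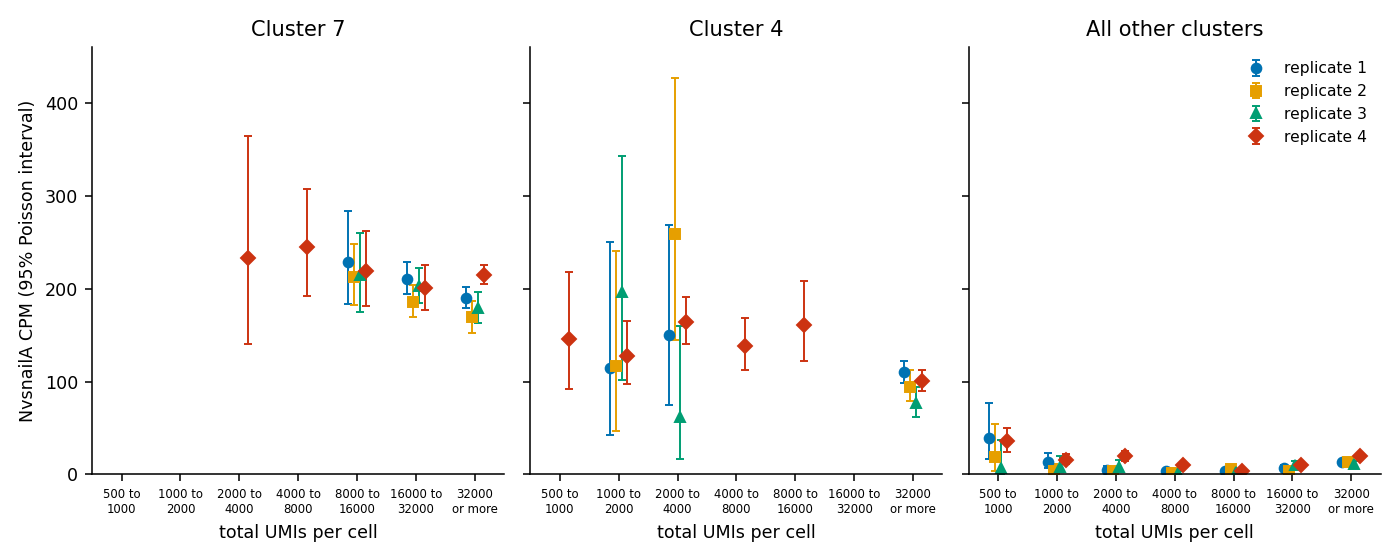
NvsnailA CPM by depth bin within cluster 7, cluster 4 and all other clusters, for each library with at least 20 cells in the bin, with 95% Poisson intervals for counting error. Cluster 7 keeps 169 to 245 CPM at all depths shown, and the other clusters stay at or under 39.1 CPM.

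**Figure D4:**
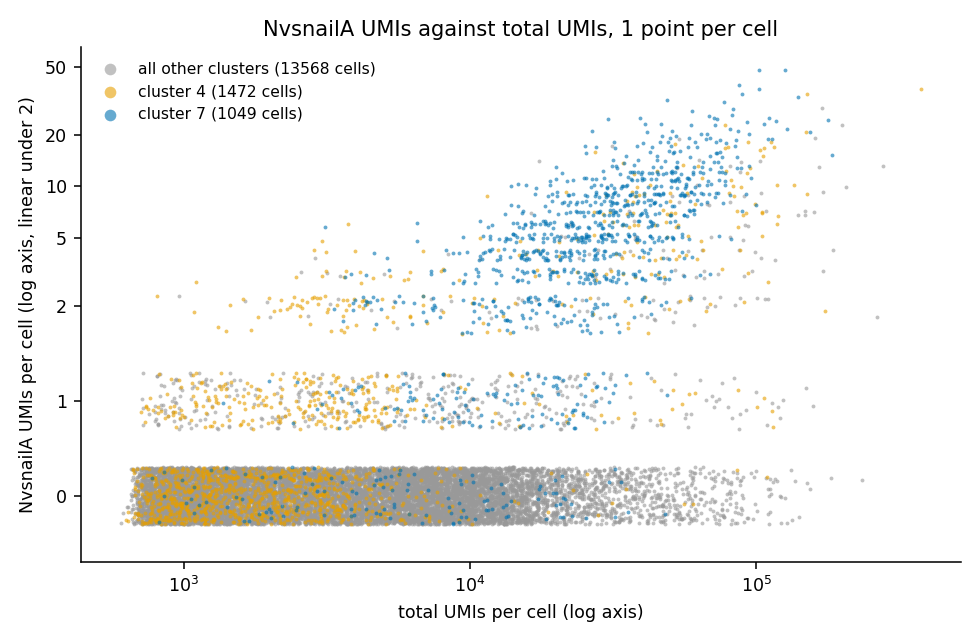
NvsnailA UMIs against total UMIs for each of the 16089 kept cells, with points spread vertically within each whole number. Cluster 7 forms a band that rises with total UMIs. Of the cluster 4 cells with 32000 or more UMIs, 87.0% to 100% in a library held the transcript. The deep cells of all other clusters mostly stay at 0.

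Of the 634 cells with 5 or more *NvsnailA* UMIs, 503 were in cluster 7, 88 in cluster 4 and 43 elsewhere. The share in cluster 7 was 75.6%, 81.4%, 87.2% and 77.2% in replicates 1 to 4.

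Detection was then compared at equal depth, by drawing 1000 UMIs at random from each cell and leaving out the 1917 shallower cells. *NvsnailA* remained in 2.48%, 2.26%, 2.89% and 4.09% of the cells of replicates 1 to 4 (2.93% ± 0.815), which are 450 of 14172 cells, against 12.9%, 12.3%, 12.9% and 13.5% of the same cells before thinning. At 4000 UMIs the shares were 8.49%, 8.496%, 9.39% and 12.99% (9.84% ± 2.14). Replicate 4 was the highest at both depths. At 8000 UMIs, with 11313 cells left out, the shares were 16.4%, 24.4%, 22.7% and 17.2%, and replicate 4 lay below replicates 2 and 3. In cluster 7 the transcript was in 18.3% ± 2.51 of cells at 1000 UMIs and 51.9% ± 4.94 at 4000, and in cluster 4 in 12.3% ± 1.77 and 35.5% ± 4.33. In cluster 1 it was in 0.159% ± 0.139 and 0.766% ± 0.469. The cells positive at 1000 UMIs came from different clusters in different libraries: cluster 7 gave 58.8%, 57.4% and 66.7% of them in replicates 1 to 3 and 27.9% in replicate 4, where cluster 4 gave 49.6%.

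Joint detection asked in which cells *NvsnailA* was found beside markers of the ectoderm and of differentiated cells. At 1000 UMIs, cells with *Nvwnt2* held *NvsnailA* in 0.228%, 0.571%, 0% and 1.98% of cases in replicates 1 to 4, and cells without *Nvwnt2* in 2.81%, 2.51%, 3.31% and 4.44%. These 2 groups of values did not overlap, and the 20 cells that held both compare with 61.6 if the markers were independent within each library. For NV2g011441000.1 the shares were 1.32%, 2.02%, 1.06% and 3.17% in cells with it, against 2.53%, 2.27%, 2.97% and 4.14%. All 4 libraries were lower, but the groups overlapped.

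For the cell type markers, the values did not overlap for the cnidocyte collagen gene *Nvncol3* (mean 1.17% in cells with it against 3.35%), for *Nvmucin* (0.249% against 3.02%), and for the progenitor genes *Nvath-like*, a proneural transcription factor (0.931% against 2.98%), and *Nvmyc1*, a Myc family gene (1.24% against 2.97%). They overlapped for *Nvncol1*, for *Nvnanos*, an RNA-binding protein of progenitors, and for all 3 neuronal markers. These are *NvashA*, a proneural transcription factor, at 1.37% against 2.96%, *NvLWamide*, a neuropeptide gene, at 2.24% against 2.97%, and *Nvelav* at 2.37% against 2.94%. *Nvelav* split the libraries: cells with it held *NvsnailA* in 1.27%, 0% and 1.61% of cases in replicates 1 to 3 and in 6.59% in replicate 4, on 1, 0, 1 and 12 cells. In an exact two-sided permutation test over libraries, 5 of the 11 markers reached p = 0.0286. After Benjamini-Hochberg adjustment over the 11 comparisons these stood at 0.0629, so 0 passed 0.05. Which markers reached the smallest p depended on the random draw. In a second draw to the same depth, chosen after seeing the data, these were *Nvwnt2*, NV2g011441000.1 and *NvashA* (adjusted p = 0.105, same test). There *Nvncol3* and *Nvmyc1* stood at an unadjusted p of 0.0571 by this test. *Nvmucin* and *Nvath-like* stood at 0.0857, with *Nvath-like* lower in 3 of 4 libraries. Thinning to 4000 UMIs kept more transcripts per cell but left out 8318 of the 16089 cells, 4762 of them in replicate 4, so the cells compared were not the same. There 8 of 11 passed with an adjusted p of 0.0393, all with fewer *NvsnailA*-positive cells among cells with the marker in 4 of 4 libraries. They were *Nvwnt2* (2.93% against 13.1%), *Nvncol1*, *Nvmucin*, *NvLWamide*, *NvashA* (2.60% against 10.2%), *Nvath-like*, *Nvmyc1* (2.12% against 10.45%) and *Nvnanos*. *Nvelav* was again the exception, at 10.6% ± 4.59 against 9.77% ± 1.98 (adjusted p = 0.771, exact permutation test). With the library as a block the smallest p is 0.125, which cannot pass.

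**Figure D5:**
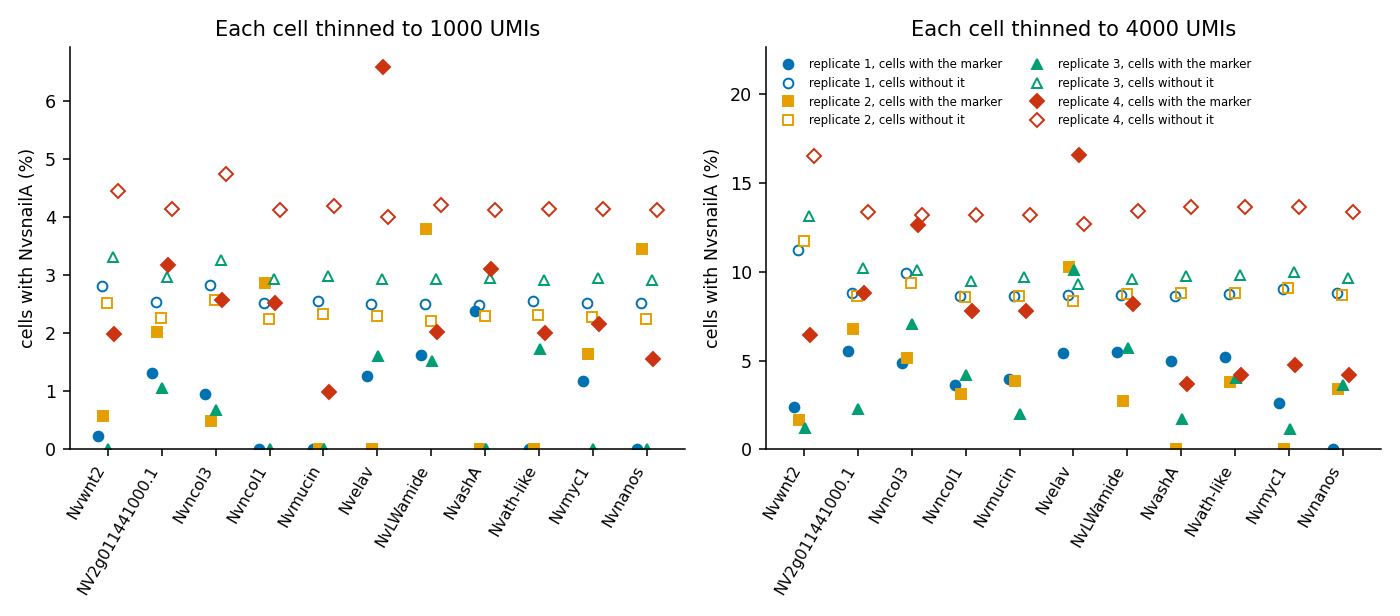
Percentage of cells with NvsnailA among cells with (filled) and without (open) each marker, in each library, after thinning every cell to 1000 UMIs (left) or 4000 UMIs (right). At 4000 UMIs the filled point of each library lies under its open point for 10 of the 11 markers, and for Nvelav replicates 2, 3 and 4 are higher in cells with the marker.

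Without thinning, the direction turned for 8 of the 11 markers: cells with *Nvelav* held *NvsnailA* in 34.3%, 39.7%, 36.0% and 27.9% of cases, against 8.60%, 8.22%, 8.19% and 9.92% of cells without it. Comparing unthinned cells only within depth bins brought *Nvwnt2* to odds ratios of 0.413, 0.192, 0.159 and 0.511 in replicates 1 to 4 (geometric mean 0.283). The progenitor genes lay at geometric means of 0.346 for *Nvath-like*, 0.325 for *Nvmyc1* and 0.376 for *Nvnanos*. *NvashA* was at 0.374, *NvLWamide* at 0.548, *Nvmucin* at 0.598, *Nvncol1* at 0.382, *Nvncol3* at 0.683 and NV2g011441000.1 at 0.851. *Nvelav* alone of the 11 was above 1 in every library, at 1.51, 2.32, 1.86 and 1.39 (geometric mean 1.73). These ratios have no test.

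Among the 634 cells with 5 or more *NvsnailA* UMIs, 55.05% held at least 1 *Nvelav* UMI and 9.78% held 3 or more. *Nvncol3* was in more of them, 65.5% with at least 1 UMI and 24.8% with 3 or more, but it was also in more of all cells. Of the 16089 kept cells, 6717 held at least 1 *Nvncol3* UMI and 1913 at least 1 *Nvelav* UMI. The 634 cells were deep, at a median of 39069 UMIs, and the part of depth in these shares was not tested. Among the 634, the cells with *Nvelav* had a median of 46315 UMIs against 32235 in those without it, and 12.3% against 7.02% were marked as likely doublets. At least 3 *Nvwnt2* UMIs were found in 17.8%, 12.7%, 5.98% and 16.3% of these cells in replicates 1 to 4. The 90 cells concerned had a median of 78405 UMIs against 36239 in the other cells of the set, and 34.4% of them were marked as likely doublets against 5.88%. A measure of background was taken from cells with 3 or more UMIs of *Nvmucin*, *Nvwnt2*, *NvLWamide*, *Nvath-like*, *Nvncol1* or NV2g011441000.1. It holds only if these cells do not express *NvsnailA*, which was not tested. For the markers not used here, cells with 3 or more UMIs and 5 or more *NvsnailA* UMIs numbered 157 (*Nvncol3*), 62 (*Nvelav*), 32 (*Nvmyc1*), 17 (*NvashA*) and 5 (*Nvnanos*). Among the background cells, 10 (*Nvmucin*) to 90 (*Nvwnt2*) by marker held 5 or more *NvsnailA* UMIs before thinning. After thinning to 1000 UMIs, *NvsnailA* was in 0.283% of such cells for *Nvmucin* (1 of 353), 0.852% for *Nvwnt2*, 1.10% for *NvLWamide*, 1.29% for *Nvath-like*, 1.72% for *Nvncol1* and 1.73% for NV2g011441000.1. These shares are pooled over libraries and compare with 450 of 14172 cells in all, while 2.93% is the mean of the libraries' shares. Before thinning the shares were 8.36% to 19.7%, at median depths of 4237 to 16680 UMIs. Whether shares of this size come from expression of *NvsnailA* in those cell types was not tested.

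Cells with and without *NvsnailA* at 1000 UMIs were then compared across all genes. Their UMIs were summed in each library (85, 61, 60 and 244 positive cells, 2018 to 5724 negative ones) and tested with edgeR's quasi-likelihood test. Of 10201 genes tested, 1987 passed an adjusted p of 0.05 (19.5%), 680 of them higher (6.67%) and 1307 lower (12.8%) in *NvsnailA*-positive cells. With no normalization factors the split was 906 higher and 1121 lower, and the median log2 fold change of all genes was -0.04 in place of -0.16. At this depth most cells of cluster 7 count as negative, so the fold changes compare a richer with a poorer mixture.

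Of the 11 markers, 4 were called lower in positive cells, where 12.8% of all genes tested were, and all 11 fold changes were below 0. *Nvwnt2* stood at 11.8, 49.2, 0 and 69.7 CPM in the positive cells of replicates 1 to 4, against 185, 178, 196 and 193 CPM in negative cells, with no overlap. Its log2 fold change was -2.17 (SE 0.32, adjusted p = 4.37e-05 by edgeR), lower in 4 of 4 libraries. It was -3.05 for *Nvncol3* (adjusted p = 1.76e-06), -1.96 for *NvLWamide* (adjusted p = 0.00023) and -4.34 for *Nvmucin* (adjusted p = 7.95e-06), each lower in 4 of 4 libraries. The call for *Nvmucin* rested on 2 UMIs in positive cells, both in replicate 4, so that without this replicate none was left. It was lost at 500 UMIs (-1.22, adjusted p = 0.194), at 2000 UMIs (0.12, adjusted p = 0.88), with at least 2 *NvsnailA* UMIs (-2.63, adjusted p = 0.0731) and in a second random draw of 1000 UMIs, chosen after seeing the data (-0.67, adjusted p = 0.327). The call for *NvLWamide* was lost at 500 UMIs (-1.52, adjusted p = 0.0815) and with at least 2 *NvsnailA* UMIs (-2.22, adjusted p = 0.0527). Of the 21 *Nvwnt2* UMIs in positive cells 17 were in replicate 4, and without it the log2 fold change was -3.41, still past the threshold. Those that did not pass were NV2g011441000.1 (-0.73, adjusted p = 0.108), *Nvncol1* (-1.61, 0.0835), *NvashA* (-1.04, 0.124), *Nvath-like* (-1.31, 0.118), *Nvmyc1* (-1.36, 0.068), *Nvnanos* (-1.72, 0.169) and *Nvelav* (-0.15, 0.87). At 2000 UMIs all of these but *Nvelav* were called lower, at adjusted p from 0.00066 to 0.0147 by edgeR. A limit of 10% mitochondrial UMIs added calls for *Nvncol1* (0.0456) and *Nvmyc1* (0.043). The second draw added *NvashA* (0.0432) and *Nvmyc1* (0.0479), and leaving out replicate 3 added *Nvath-like* (0.0176). At least 2 *NvsnailA* UMIs added NV2g011441000.1 (0.0208). With no filter on low counts NV2g011441000.1, *Nvncol1*, *NvashA* and *Nvath-like* passed too. When cells were thinned to 4000 UMIs, also chosen after seeing the data, 10 of the 11 were lower at an adjusted p under 0.05 by edgeR, and *Nvelav* remained without a call (-0.53, adjusted p = 0.06).

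The largest rises were in genes with few UMIs. NV2g023492000.1 had 1, 1, 1 and 6 UMIs in the positive cells and a log2 fold change of 4.26 (SE 0.69, adjusted p = 0.000136 by edgeR), and NV2g010019000.1 had 2, 2, 1 and 3 UMIs and 3.32 (SE 0.66, adjusted p = 0.00113). Mean levels in negative cells were 1.06 and 1.63 CPM, while 1 UMI in the positive cells of replicate 3 was 16.7 CPM. Both were picked as the largest rises past the filter on low counts. They passed it only through the positive cells, whose small sums turn few UMIs into a high CPM. Their p-values therefore do not test that choice. Neither passed that filter in the second draw, at 500 UMIs, with at least 2 *NvsnailA* UMIs, or without cluster 4 or 7. NV2g023492000.1 also failed it at 2000 and 4000 UMIs, with at most 10% mitochondrial UMIs and without replicate 4. With no filter both stayed past the threshold (4.03 and 3.17), but on the same UMIs by which they were picked. The largest falls were NV2g018052000.1 and NV2g011819000.1, with 0 UMIs in all positive cells against 997 and 584 in negative cells. Set against 3 UMIs over the whole positive group, they were at least 10.9-fold and 6.38-fold lower in this draw. The first bound did not hold in the second draw: NV2g018052000.1 had UMIs in positive cells and a log2 fold change of -2.71 (adjusted p = 0.000808 by edgeR) in the second draw, and its call was lost at 500 UMIs (adjusted p = 0.0622). The call for NV2g011819000.1 was lost at 500 UMIs (adjusted p = 0.0592) and with at least 2 *NvsnailA* UMIs (adjusted p = 0.174). The files and the reference table give no names for these IDs.

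Over the 20 clusters, the genes whose levels were most like that of *NvsnailA* were NV2g006260000.1 (Pearson r = 0.953) and NV2g006470000.1 (r = 0.951), of 12846 genes with at least 500 UMIs. The clusters share their libraries, so r is given as a description. NV2g006260000.1 had 669 CPM in cluster 7, 386 in cluster 4 and 53.4 in other cells. NV2g006470000.1 had 139, 67.4 and 5.97. Both were also higher in *NvsnailA*-positive cells at 1000 UMIs, in 4 of 4 libraries. For NV2g006260000.1 the positive cells had 647, 246, 467 and 455 CPM against 112, 58.8, 116 and 110 (log2 fold change 2.08, SE 0.24, adjusted p = 2.96e-06 by edgeR). For NV2g006470000.1 they had 58.8, 49.2, 66.7 and 57.4 CPM against 19.1, 22.4, 19.3 and 18.7 (1.43, SE 0.31, adjusted p = 0.00231 by edgeR). The latter call was lost without replicate 4 (1.36, adjusted p = 0.0584), at 500 UMIs (0.62, adjusted p = 0.695) and with at least 2 *NvsnailA* UMIs (1.45, adjusted p = 0.208). These tests reuse the cells that ranked the genes. None of the 11 markers came near this likeness, with r from -0.32 for *Nvmyc1* to 0.11 for NV2g011441000.1.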

How the data were processed

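Single cells of 4 technical replicate libraries were measured with the Chromium 3′ chemistry of 10x Genomics. The authors aligned reads to introns and exons with Cell Ranger. The deposited values are whole UMI counts, not normalized, with a separate matrix for each library. The matrix headers name version 6.1.2, the submitters' processing notes 7.1.1, and the study's methods a further version. No genome build is named in the sources used here. The RefSeq table at hand (assembly jaNemVect1.1) matched 0 of the gene IDs, so no positions or sequences are given.

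Barcodes with at least 500 genes were kept, which left 22712171 to 56076579 UMIs per library. Pairs of libraries shared 28 barcodes, 5 of them with *NvsnailA*, and none was removed. No limit on mitochondrial UMIs, no doublet removal and no removal of clusters was applied. A limit of 10% over 10 listed genes and removal of likely doublets (the highest scores of the scrublet method in scanpy 1.11.5, at an assumed 0.8% per 1000 barcodes) were alternatives. Clusters were computed with Seurat 5.3.0 (LogNormalize, 4000 variable genes less the markers, 30 principal components, Louvain resolution 0.5), and a CPM is the gene's summed UMIs over all UMIs of the same cells. Thinning drew UMIs without replacement. Intervals are 95% Poisson or Wilson and cover counting error only, and the limit for a count of 0 rests on 3 counts.

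Summed counts were tested with edgeR 4.0.16 (TMM, filterByExpr, quasi-likelihood test, Benjamini-Hochberg over all genes tested, *NvsnailA* left out) in R 4.3.3, and with DESeq2 1.42.0 as an alternative. Tested on simulated data for this comparison, with 200 of 9626 genes changed by 2 on the log2 scale, edgeR recovered 91.0%, with 12 false among 194 calls. The changed genes were drawn only among those expected to exceed 2 UMIs in a sum of 60000, with the same assumed dispersion for all genes. The recovery therefore does not cover genes with fewer UMIs, and the real data had more calls, 1987. The positive and negative sums of a library come from the same run of the chip, so the library number pairs them. Their deviations from the group means correlated at 0.214, 0.0699, 0.0865 and 0.146 over 10201 genes.

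Genes are named by this rule: *NvsnailA*, the markers that the study lists by ID, the 2 largest rises and the 2 largest falls that passed in all libraries, and the 2 genes most like *NvsnailA* by Pearson correlation of log2(CPM + 10) over clusters, among genes with at least 500 UMIs. Of 12 other listed marker IDs, 11 were found in the matrices and 1, for a cnidocyte gene, was not analysed here. The gene, the lists and the tests were chosen with earlier results of these data known. Alternatives changed the depth split, the thinned depth, the normalization, the filters, the test, the clustering settings and the libraries used.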

Additional observations from a re-analysis of the deposited data

Results flagged for a closer look

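In 9 of 45 sets of 4 library values, replicate 4 lay far from the others, its gap to the next value taking most of the whole range (Dixon's test at the 95% level), which chance gives in about 1 of 20 such sets. The sets overlap, since they share the same cells. Replicate 4 was the highest each time. Its *NvsnailA* level over all kept cells was 61.6 CPM. Of its positive cells, 51.6% held a single *NvsnailA* UMI, against 27.8% to 29.8% in the others. Its cells under 8000 UMIs had 46.4 CPM and 8.09% of them held the transcript. In cells of 2000 to 4000 UMIs it had 58.4 CPM, and in cells of 4000 to 8000 UMIs 42.7 CPM with 16.1% positive. Cluster 4 took 14.6% of its cells. After thinning to 2000 UMIs, 8.12% of its cells held the transcript, against 4.76% to 5.30% in the others. Replicate 4 also had the most cells and the lowest median depth, and their part in these values was not tested.

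Barcodes with fewer than 500 genes, which no comparison used, also held *NvsnailA*, at 31.3, 22.2, 14.9 and 33.6 CPM (mean 25.5) on 12, 6, 4 and 27 UMIs. Each count is above the 3 on which the limit for a count of 0 rests, and the level of free RNA was not measured.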

How the results depend on the processing

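The difference between deep and shallow cells kept its direction in all alternatives run, from 1.34 to 2.86 on the log2 scale. Its call ended with the replicate block (2.18, p = 0.125) and without a replicate (1.92 to 2.73), where the exact test cannot pass. The 1987 genes called became 558, 4066 and 6434 when cells were thinned to 500, 2000 and 4000 UMIs, 1138 with at least 2 *NvsnailA* UMIs (3 to 18 positive cells a library), 762 without cluster 7 and 1321 to 1649 without a replicate, fewest without replicate 4. The replicate block gave 1909 and moved no marker across the threshold, and the second draw gave 1718, 1270 of them shared with the first. The count of markers that differed in joint detection was 7 at 2000 and 8 at 4000 UMIs, and 0 in the other alternatives. That count could only be 0 with the replicate block or without a replicate, where the exact test cannot pass, and over 11 comparisons 4 against 4 passes only where at least 7 markers reach the smallest p. The level of the highest cluster stayed within 1 SD, and the 2 highest clusters held 75.2% of *NvsnailA* UMIs at resolution 1.0. There the second cluster had 163 ± 3.61 CPM (974 cells, median 1684 UMIs) and the third 104 ± 15.0 CPM (333 cells, median 20898 UMIs). The level of 109 CPM for cluster 4 and its step below cluster 7 thus hold for resolution 0.5.

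Directions turned in these cases. Log2 fold changes became 0.30 for *NvashA* at 500 UMIs, 0.12 for *Nvmucin* at 2000, and for *Nvelav* 0.066 at 2000, 0.42 in the second draw and -1.75 to 0.036 without a replicate. Differences in joint detection, in percentage points, became 0.414 for *NvLWamide* at 500 UMIs. For *Nvelav* they became 1.44 at 2000, 0.816 at 4000, 0.00708 in the second draw, 0.0800 with at least 2 *NvsnailA* UMIs (*NvLWamide* 0.196) and -1.62 to 0.00922 without a replicate. With no thinning they became 6.72 for NV2g011441000.1, 5.78 for *Nvncol3*, 1.91 for *Nvncol1*, 25.7 for *Nvelav*, 3.05 for *NvLWamide*, 3.25 for *Nvath-like*, 2.47 for *Nvmyc1* and 0.756 for *Nvnanos*. The causes were not tested. At 1000 UMIs the fewest marker-positive cells in a library, 25 for *Nvnanos*, limit what joint detection can show.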
